A study of Mus musculus with 24 samples.

Results

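The genes that encode the AP-1 transcription factor, together with *Egr1*, *Ier2* and *Ier3*, were examined in MS03 cells, a murine *Nf2*-/- Schwann cell (SC) line, after 24 hours with 7 drugs directed at focal adhesion kinase (FAK). The members were *Fos*, *Fosb*, *Fosl1*, *Fosl2*, *Jun*, *Junb*, *Jund*, *Egr1*, *Ier2* and *Ier3*, found by symbol, that is 10 of the 49315 genes in the count table. All 10 passed the filter on low counts and were among the 16070 genes tested. Cells received dimethyl sulfoxide (DMSO) or a compound dissolved in it, with 3 biological replicates per treatment and 24 libraries in 8 groups. Of the drugs, 4 block the kinase (GSK2256098, VS-4718, defactinib and IN10018, which the paper calls ifebemtinib) and 3 are proteolysis-targeting chimeras (PROTACs), designed to have the protein degraded. The 4 kinase inhibitors and PROTAC FAK degrader 1 were at 1 μM. BSJ-04-0146 and GSK215, also PROTACs, were at 0.1 μM, so they were tested against DMSO and against each other only. Where their levels stand beside those of the drugs at 1 μM, drug and dose cannot be told apart and the difference was not tested. Every group, DMSO included, is the same immortalized *Nf2*-/- line grown in 10% fetal bovine serum, with no *Nf2*-expressing counterpart and no other time point. The labels do not say whether the replicates were separate cultures, so p-values measure the spread between these libraries.

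AP-1 is a dimer of basic leucine zipper proteins. A Fos protein (encoded by *Fos*, *Fosb*, *Fosl1* or *Fosl2*) must pair with a Jun protein (*Jun*, *Junb* or *Jund*) to bind DNA, whereas Jun proteins can also pair with each other. Most of these genes, with *Egr1*, *Ier2* and *Ier3*, are immediate-early genes: serum, growth factors, adhesion and stress induce them through mitogen-activated protein kinases within minutes and without new protein synthesis, and their transcripts are short-lived. In SCs, *Jun* is known for its part in the response to nerve injury, where it opposes the myelinating state, and *Egr1* marks immature and dedifferentiated cells, whereas its relative *Egr2* drives myelination.

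The windows upstream of these genes are shown for 4 members, *Fos*, *Fosb* and *Junb*, which rose with PROTAC FAK degrader 1, and *Jun*, which fell with it. Each is the 250 bases before the RefSeq transcription start in GRCm38.p6, written 5′ to 3′ on the gene's strand. Capitals mark matches to the motifs named in the next paragraph. The windows are chr12:85473640-85473889 (plus strand) for *Fos*, chr7:19310046-19310295 (minus) for *Fosb*, chr4:95052223-95052472 (minus) for *Jun* and chr8:84978749-84978998 (minus) for *Junb*.
Fos: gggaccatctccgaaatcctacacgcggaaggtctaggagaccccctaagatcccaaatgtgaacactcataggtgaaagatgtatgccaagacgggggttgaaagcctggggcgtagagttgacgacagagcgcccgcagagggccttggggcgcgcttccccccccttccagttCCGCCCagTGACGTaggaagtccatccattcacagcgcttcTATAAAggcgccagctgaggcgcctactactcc
Fosb: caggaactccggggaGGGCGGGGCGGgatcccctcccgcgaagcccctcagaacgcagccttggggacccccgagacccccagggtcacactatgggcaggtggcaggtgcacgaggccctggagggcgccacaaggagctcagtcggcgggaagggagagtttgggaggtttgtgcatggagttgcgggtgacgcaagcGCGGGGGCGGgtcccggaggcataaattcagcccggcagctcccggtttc
Jun: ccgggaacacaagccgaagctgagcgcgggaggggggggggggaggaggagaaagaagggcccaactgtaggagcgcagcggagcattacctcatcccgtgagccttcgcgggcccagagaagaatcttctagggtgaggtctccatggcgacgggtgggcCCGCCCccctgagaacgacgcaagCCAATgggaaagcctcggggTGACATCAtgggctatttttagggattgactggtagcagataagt
Junb: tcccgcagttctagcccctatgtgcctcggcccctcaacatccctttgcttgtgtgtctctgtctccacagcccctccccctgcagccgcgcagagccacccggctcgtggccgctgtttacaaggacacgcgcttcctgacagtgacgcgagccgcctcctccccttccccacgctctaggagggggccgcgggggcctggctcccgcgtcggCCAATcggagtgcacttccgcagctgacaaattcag

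Of the 10 members, 7 had a window that was searched. *Fosl1* and *Ier2* were not matched in the RefSeq table, and chromosome 18, which holds *Egr1*, was left out of the search. Motifs were searched on both strands. The share that follows each is that of 32851 windows of the same length, over all genes outside chromosome 18. The *Fos* window held the CRE half-site TGACGT (6.47% of windows) at −66 to −61 and the TATA box TATAAA (12.4%) at −33 to −28, counted from the start. The *Jun* window held the AP-1 octamer TGACNTCA (7.49%), as TGACATCA at −45 to −38. The octamer can contain TGACGT, but not in this spelling. The EGR site GCGNGGGCG (4.70%), the binding sequence of the Egr proteins, was in the windows of *Fosb* and *Fosl2*, in each case overlapping a GC box. The GC box GGGCGG (32.7%) was in 5 of the 7 windows (*Fos*, *Fosb*, *Fosl2*, *Jun* and *Ier3*) and CCAAT (33.8%) in 3 (*Jun*, *Junb* and *Ier3*). The AP-1 heptamer TGANTCA (6.75%) and the CArG box (1.47%), which serum response factor binds, were in none of the 7. One of the 7, the *Jund* window (chr8:70697489-70697738, plus strand), does not adjoin the annotated gene, which starts at 70698949. It held none of the motifs. These letters may lie outside the windows, and a match is no evidence of binding.

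Library totals lay between 14472462 and 27449516 counts. They were lowest with GSK215 (14472462 to 19331704) and BSJ-04-0146 (16112245 to 17794597), and 22952048 to 27449516 with DMSO. *Ptk2*, which encodes FAK, was at 95.3 ± 2.39 CPM (counts scaled to the TMM-normalized library total; SD, n = 3) with DMSO and between 77.8 and 97.6 CPM in the drug means. Its log2 fold change against DMSO was −0.29 with GSK215, −0.26 with BSJ-04-0146, −0.18 with VS-4718, −0.14 with defactinib and −0.13 with GSK2256098. The adjusted p was under 0.05 in edgeR for each of these, but not for IN10018 (−0.07) or PROTAC FAK degrader 1 (0.03). Transcripts do not show whether the protein was degraded. Of 10 SC markers 7 reached 1 CPM in every group, whereas *S100b* and *Gap43* stayed below 1 CPM in every library. The fibroblast collagen genes *Col1a1* and *Col1a2* were high, at 392 and 1350 CPM with DMSO, whereas *Dcn* and *Lum* had 0 to 3 counts. *Ptprc*, a gene of leukocytes in general, and *Adgre1*, a macrophage gene, had at most 1 count in any library. The summed SC markers were 108 to 111 CPM with DMSO and 115 to 119 CPM with PROTAC FAK degrader 1, but 340 to 349 CPM with GSK215 and 297 to 328 CPM with BSJ-04-0146. With the kinase inhibitors they were 174 to 192 CPM (VS-4718), 148 to 159 CPM (defactinib), 130 to 139 CPM (GSK2256098) and 107 to 113 CPM (IN10018). The summed fibroblast markers were 1730 to 1770 CPM with DMSO and 994 to 1010 CPM with PROTAC FAK degrader 1. The 5 macrophage markers summed to 3.71 to 4.08 CPM with DMSO and 11.2 to 12.0 CPM with PROTAC FAK degrader 1, nearly all of it *Cd68* (2.94 to 11.4 CPM over the libraries). The part of these shifts in the results was not tested.

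Levels can be compared between genes only per length, here CPM per kilobase (kb) of annotated exon. On that scale *Ier3* (97.8 ± 4.76), *Jund* (73.1 ± 3.51) and *Fosl1* (62.8 ± 1.24; SD, n = 3) were the most abundant members with DMSO. *Junb* (36.0), *Jun* (31.4), *Ier2* (19.2) and *Fosl2* (17.1) followed. *Egr1* was at 2.04 CPM per kb, and *Fos* (0.331 ± 0.0792) and *Fosb* (0.317 ± 0.0636) were lowest and did not differ beyond their spread. In counts, *Fos* ranged from 7 to 126 and *Fosb* from 6 to 87 over the 24 libraries, so their estimates are the least precise. The other 8 members had between 184 and 5319.

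All 10 members were called with PROTAC FAK degrader 1 and no other drug moved all 10, but the *Ier2* call (0.16) was lost when any of 3 single libraries was left out and when GC content and length trends were removed (0.025, adjusted p = 0.731, edgeR). In edgeR's quasi-likelihood test, with p-values adjusted over all genes tested, 7 members were higher and 3 lower with PROTAC FAK degrader 1 than with DMSO, where 34.1% of all genes tested were higher and 32.7% lower. With GSK215, 3 were higher (2 by DESeq2 and by limma-trend, without *Junb*) and 6 lower, beside 27.4% and 27.2% of all genes, and with BSJ-04-0146, 2 were higher and 6 lower, beside 27.7% and 26.9%. Once GC content and length trends were removed, neither higher call with BSJ-04-0146 (*Jund* and *Egr1*) passed and 7 members were lower, with *Junb* among them, beside 21.8% of all genes higher and 33.8% lower. Among the kinase inhibitors, VS-4718 moved 4 members up and 4 down, beside 20.4% and 18.9% of all genes. Defactinib moved 5 down and 0 up, beside 11.0% lower and 11.4% higher, and 3 down without defactinib replicate 1. IN10018 moved 5 up and 0 down, beside 6.44% higher and 6.86% lower. For both counts of 0 the number was also 0 at an unadjusted p under 0.05, by DESeq2 and by limma-trend. GSK2256098 moved 1 up and 1 down, beside 6.36% and 6.09%. The 7 comparisons share the DMSO libraries and are not independent of each other.

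**Figure D1:**
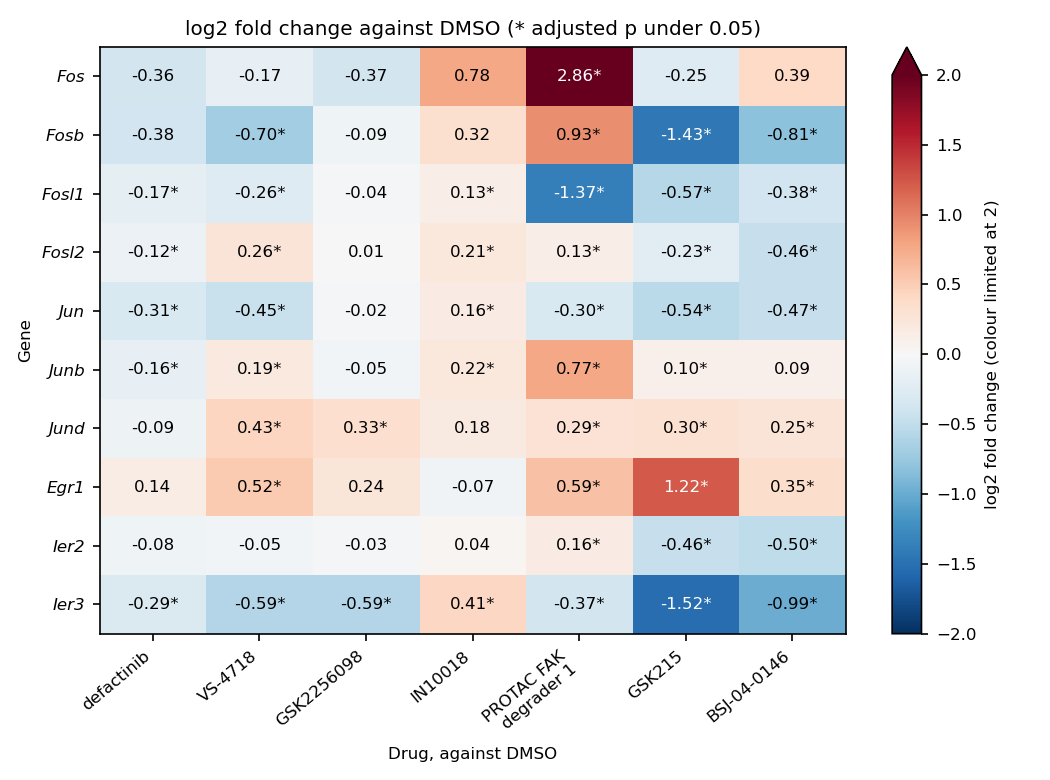
Log2 fold change of each member (rows) with each drug against DMSO (columns), with colour from blue (lower) to red (higher) and an asterisk where the edgeR adjusted p was under 0.05. *Fos* was called higher with PROTAC FAK degrader 1 (2.86) and in edgeR with no other drug (0.78 with IN10018, adjusted p = 0.0618), and *Ier3* was lower with every drug but IN10018 (0.41), while the small positive values of *Junb* with GSK215 (0.10) and BSJ-04-0146 (0.09) turned negative once GC content and length trends were removed.

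*Fos*, the founding member of the Fos family, was low with DMSO and rose with PROTAC FAK degrader 1. Its levels were 0.904, 0.564 and 0.865 CPM with DMSO (20, 15 and 21 counts) and 5.78, 5.58 and 5.51 CPM with PROTAC FAK degrader 1 (126, 107 and 105 counts). The 3 treated libraries lay above the highest library of every other group, which was 1.53 CPM. The log2 fold change was 2.86 (SE 0.24, edgeR adjusted p = 1.27e-13), a ratio of 7.26 with a 95% interval on the log2 scale of 2.38 to 3.34. In bulk RNA, more transcript per cell and more cells with the transcript cannot be told apart. With IN10018, *Fos* was at 1.06, 1.37 and 1.53 CPM, above all 3 DMSO libraries, but the difference of 0.78 (SE 0.28) missed the threshold in edgeR (adjusted p = 0.0618), and passed it with limma-trend on log2(CPM + 4) (adjusted p = 0.0476). With the other 5 drugs *Fos* means ran from 0.595 to 1.02 CPM and none passed. In order of level, IN10018 (1.32), BSJ-04-0146 (1.02) and DMSO (0.777) followed PROTAC FAK degrader 1 (5.62), and below that the neighbours did not differ beyond their spread. *Fos* lies at chr12:85473890-85477273 on the plus strand (GRCm38), with 4 merged exons.

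*Fosb*, whose protein is a strong activator and whose splice form deltaFosB persists for long, moved in opposite directions with the PROTACs. Its levels were 1.67, 1.84 and 2.43 CPM with DMSO, and 3.99, 3.96 and 3.36 CPM with PROTAC FAK degrader 1, with no overlap (log2 fold change 0.93, SE 0.19, adjusted p = 5.13e-05, edgeR). With GSK215 it fell to 0.394, 0.907 and 0.839 CPM (−1.43, SE 0.26, adjusted p = 1.18e-05). All 3 of these libraries lay below every DMSO library. BSJ-04-0146 gave 0.883, 1.14 and 1.36 CPM (−0.81, SE 0.24, adjusted p = 0.00404). With VS-4718 it was also lower (−0.70, adjusted p = 0.00995), but not past the threshold without DMSO replicate 3 (−0.53, adjusted p = 0.0921) or without VS-4718 replicate 3 (−0.58, adjusted p = 0.0577). Defactinib (−0.38), GSK2256098 (−0.09) and IN10018 (0.32) did not pass. The GSK215 libraries held 6 to 17 *Fosb* counts. *Fosb* lies at chr7:19302696-19310051 on the minus strand.

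*Fosl1* encodes FRA1, a Fos protein that lacks a strong activation domain and is raised by sustained ERK signaling, and it was the most abundant Fos family transcript. It fell with all 3 PROTACs. It was at 126, 126 and 130 CPM with DMSO and at 51.0, 51.3 and 45.5 CPM with PROTAC FAK degrader 1, the lowest 3 of the 24 libraries. The log2 fold change was −1.37 (SE 0.05, adjusted p = 2.16e-25, edgeR), that is 0.387 times the DMSO level. GSK215 lowered it to 84.6, 84.2 and 89.5 CPM (−0.57, SE 0.05, adjusted p = 9e-14). BSJ-04-0146 lowered it to 93.8, 95.6 and 105 CPM (−0.38, adjusted p = 2.11e-09). The 2 sets of libraries did not overlap, nor did either overlap DMSO. VS-4718 (107 CPM, −0.26) and defactinib (113 CPM, −0.17) also lowered it, whereas GSK2256098 (124 CPM, −0.04) did not pass, except as lower once GC content and length trends were removed (−0.11, adjusted p = 0.0407). IN10018 gave the highest mean (139 CPM, 0.13, adjusted p = 0.0417), a call lost with 5 of the 6 libraries left out in turn, that is without DMSO replicates 1, 2 or 3 (0.12, 0.12 and 0.14) or IN10018 replicates 1 or 3 (0.12 and 0.11). It was also lost with limma-trend (adjusted p = 0.0674), when thinned to the smallest total (0.10, adjusted p = 0.121) and when GC content and length trends were removed (0.048, adjusted p = 0.434). The gene lies at chr19:5447547-5455946 on the plus strand, and 1163 bp of its exons overlap *Ccdc85b* on the opposite strand. The strand setting of the counting is not given in the sources used here, so reads of the overlap may be shared or left uncounted. *Ccdc85b* itself was at 62.0 ± 5.07 CPM with DMSO and 49.0 ± 3.60 CPM with PROTAC FAK degrader 1 (−0.34, adjusted p = 2.32e-06), and its part in the *Fosl1* result was not tested.

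*Fosl2*, which encodes FRA2, rose with 3 drugs and fell with 3. With DMSO it was at 165, 168 and 165 CPM. It rose with VS-4718 to 203, 205 and 189 CPM (log2 fold change 0.26, SE 0.04, adjusted p = 2.81e-07, edgeR) and with IN10018 to 191, 192 and 195 CPM (0.21, adjusted p = 8.51e-05). PROTAC FAK degrader 1 gave 187, 183 and 174 CPM (0.13, adjusted p = 0.00295). In these 3 groups every library lay above every DMSO library. It fell with BSJ-04-0146 to 116, 117 and 130 CPM (−0.46, adjusted p = 4.92e-13) and with GSK215 to 136, 144 and 145 CPM (−0.23, adjusted p = 3.07e-06). Defactinib lowered it to 153 CPM (−0.12, adjusted p = 0.0154). That call was lost without DMSO replicate 2 (−0.11), defactinib replicate 1 (−0.11) or defactinib replicate 2 (−0.11). GSK2256098 (167 CPM, 0.01) did not pass. *Fosl2* lies at chr5:32135801-32157842 on the plus strand.

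Through these changes the composition of the Fos family shifted with PROTAC FAK degrader 1. Per kb, *Fosl1* made up 77.9 ± 0.355% of Fos family transcripts with DMSO and 52.7 ± 0.902% with PROTAC FAK degrader 1 (SD, n = 3). *Fosl2* went from 21.3 to 40.7%, *Fos* from 0.41 to 5.21% and *Fosb* from 0.393 to 1.31%. The family's sum went from 80.5 ± 1.24 to 46.0 ± 2.33 CPM per kb, with no overlap between the libraries. GSK215 and BSJ-04-0146 also had lower sums (57.4 and 61.4 CPM per kb), but *Fosl1* kept 73.8 and 78.7% of them. With VS-4718 the *Fosl1* share was 71.4%, with *Fosl2* at 27.9%. With defactinib, GSK2256098 and IN10018 the *Fosl1* share was 76.7 to 77.5%. These shares are given without a test and depend on the exon lengths used, from 2033 bp for *Fosl1* to 9680 bp for *Fosl2*.

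**Figure D2:**
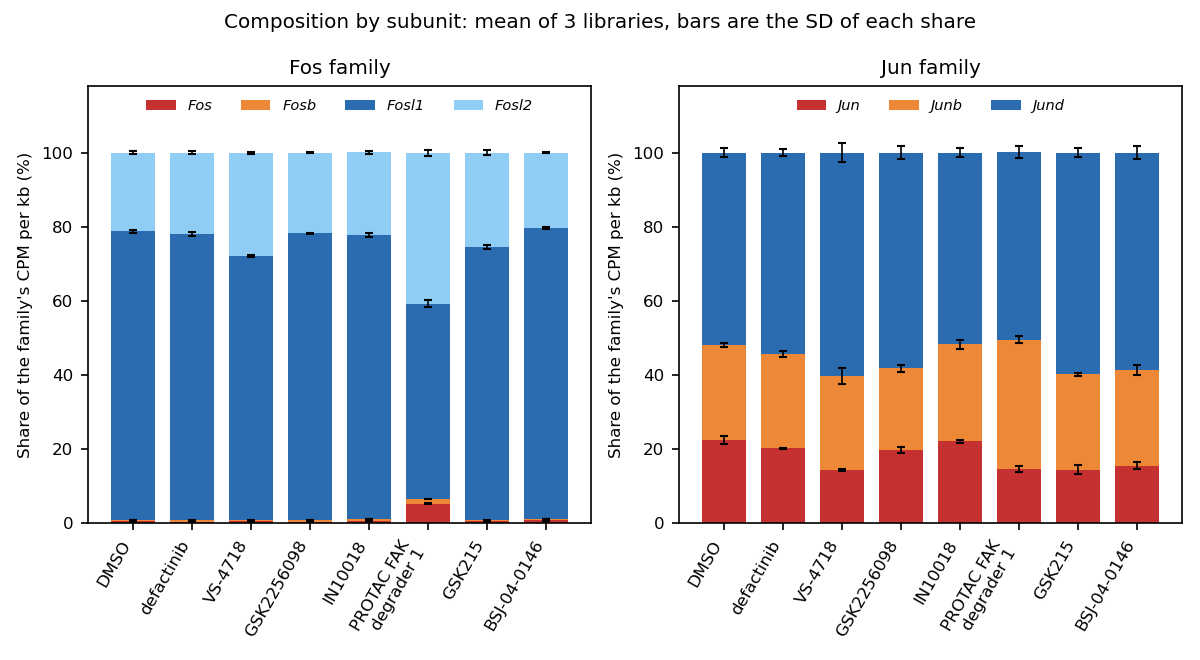
Share of each subunit in the summed CPM per kb of the Fos family (left) and Jun family (right), in percent, as the mean of 3 libraries per group with the SD of each share drawn at the top of its block. The *Fosl1* block shrinks from 77.9% with DMSO to 52.7% with PROTAC FAK degrader 1, and the *Jun* block from 22.4% to between 14.2 and 15.4% with VS-4718 and the 3 PROTACs.

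*Jun*, the strongest activator of the Jun family and a mark of the injury response of SCs, was lower with 5 drugs and higher with 1. It was at 102, 101 and 97.7 CPM with DMSO. GSK215 lowered it to 71.0, 69.2 and 66.4 CPM (log2 fold change −0.54, SE 0.04, adjusted p = 1.1e-13, edgeR), BSJ-04-0146 to 72.3, 71.5 and 74.0 CPM (−0.47, adjusted p = 6.39e-12) and VS-4718 to 77.8, 74.4 and 68.3 CPM (−0.45, adjusted p = 2.13e-11). None of these 9 libraries reached the DMSO range. Defactinib (80.8 CPM, −0.31) and PROTAC FAK degrader 1 (81.4 CPM, −0.30) lowered it less, with adjusted p = 4.79e-07 and 6.43e-08. IN10018 raised it to 112 CPM (0.16, adjusted p = 0.00558) and GSK2256098 left it at 99.0 CPM (−0.02, 95% interval −0.10 to 0.06). *Jun* has a single exon at chr4:95049034-95052222 on the minus strand and shares 232 bp with its antisense gene *Junos*. *Junos* had 19 to 57 counts per library and passed with no drug, so its reads are few beside the 1082 to 2697 of *Jun*.

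*Junb*, a Jun protein that often acts against *Jun* and is regulated apart from it, rose with PROTAC FAK degrader 1. The levels were 82.8, 81.0 and 84.7 CPM with DMSO and 148, 138 and 138 CPM with PROTAC FAK degrader 1 (log2 fold change 0.77, SE 0.04, adjusted p = 1.86e-19, edgeR), above every other library of the series. With IN10018 it was at 95.7, 90.8 and 102 CPM (0.22, adjusted p = 0.00045) and with VS-4718 at 95.3, 93.9 and 94.9 CPM (0.19, adjusted p = 0.000244). The VS-4718 call was lost when GC content and length trends were removed (0.05, adjusted p = 0.321). Defactinib lowered it to 74.2 CPM (−0.16, adjusted p = 0.00603), but not past the threshold without defactinib replicate 1 (−0.13, adjusted p = 0.0512). GSK2256098 (−0.05, adjusted p = 0.512) passed as lower once GC content and length trends were removed (−0.14, adjusted p = 0.0113). GSK215 (0.10, adjusted p = 0.047) and BSJ-04-0146 (0.09, adjusted p = 0.0664) gave small positive values whose direction turned once GC content and length trends were removed (−0.081, adjusted p = 0.0873, and −0.16, adjusted p = 0.00097). The GSK215 call was also lost without DMSO replicates 1 (0.10) or 2 (0.08) and without GSK215 replicates 2 (0.11) or 3 (0.07). It was lost with DESeq2 (adjusted p = 0.0765), limma-trend (0.0504), no filter (0.128), thinning to the smallest total (0.0623) and a replicate block (0.0547) as well. BSJ-04-0146 passed as higher without its replicate 1 (0.13) and with library totals alone (0.20). *Junb* lies at chr8:84974484-84978718 on the minus strand. It shares 173 bp with *Prdx2* on the opposite strand, which was at 247 CPM with DMSO and 265 CPM with PROTAC FAK degrader 1 (0.10, adjusted p = 0.0041). The part of these reads in the *Junb* result was not tested.

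*Jund*, the Jun gene expressed most steadily in resting cells and often antiproliferative, was higher with 5 drugs and lower with none. It was at 117, 121 and 128 CPM with DMSO. VS-4718 gave the highest mean and the widest spread, at 182, 168 and 142 CPM (log2 fold change 0.43, SE 0.06, adjusted p = 4.74e-07, edgeR). GSK2256098 gave 143, 152 and 164 CPM (0.33, adjusted p = 0.000277), its largest upward change among the members. PROTAC FAK degrader 1 (149 CPM, 0.29), GSK215 (150 CPM, 0.30) and BSJ-04-0146 (145 CPM, 0.25) all lay above DMSO. The BSJ-04-0146 call was lost when GC content and length trends were removed (0.04, adjusted p = 0.572). With IN10018 it was at 138 CPM (0.18, adjusted p = 0.0557), a difference that passed with no filter (adjusted p = 0.000103), with only the groups compared (0.000391), with library totals alone (0.0395) and without DMSO replicate 3 (0.22, adjusted p = 0.0495), and with defactinib at 114 CPM (−0.09, adjusted p = 0.331). The count of 0 drugs with lower *Jund* was 1 once GC content and length trends were removed (defactinib, −0.17, adjusted p = 0.0137). *Jund* has a single exon at chr8:70698949-70700616 on the plus strand, and shares 877 bp with the antisense gene *Gm11175*. That gene had 0 counts in every library. Without the strand setting, it is not known whether reads of the overlap were counted for *Jund*.

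Per kb, *Jund* made up 50.7 to 60.4% of the Jun family in every group. The *Jun* share was 22.4 ± 1.03% with DMSO and 14.2 to 15.4% with VS-4718 and the 3 PROTACs, whereas with GSK2256098, defactinib and IN10018 it was 19.7, 20.1 and 22.0%. The *Junb* share was 25.6% with DMSO and 34.9 ± 0.946% with PROTAC FAK degrader 1, and 22.1 to 26.2% elsewhere. The family's sum was 141 ± 3.34 CPM per kb with DMSO, 126 ± 7.71 with defactinib and 177 ± 7.72 with PROTAC FAK degrader 1. It was 163 with VS-4718, 160 with IN10018, 158 with GSK2256098, 150 with GSK215 and 148 with BSJ-04-0146. With VS-4718 and PROTAC FAK degrader 1 every library lay below the DMSO libraries in the Fos family sum and above them in the Jun family sum. The means did so with GSK2256098, GSK215 and BSJ-04-0146 too, but the libraries overlapped DMSO in the Fos family sum with the first and in the Jun family sum with the others.

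**Figure D3:**
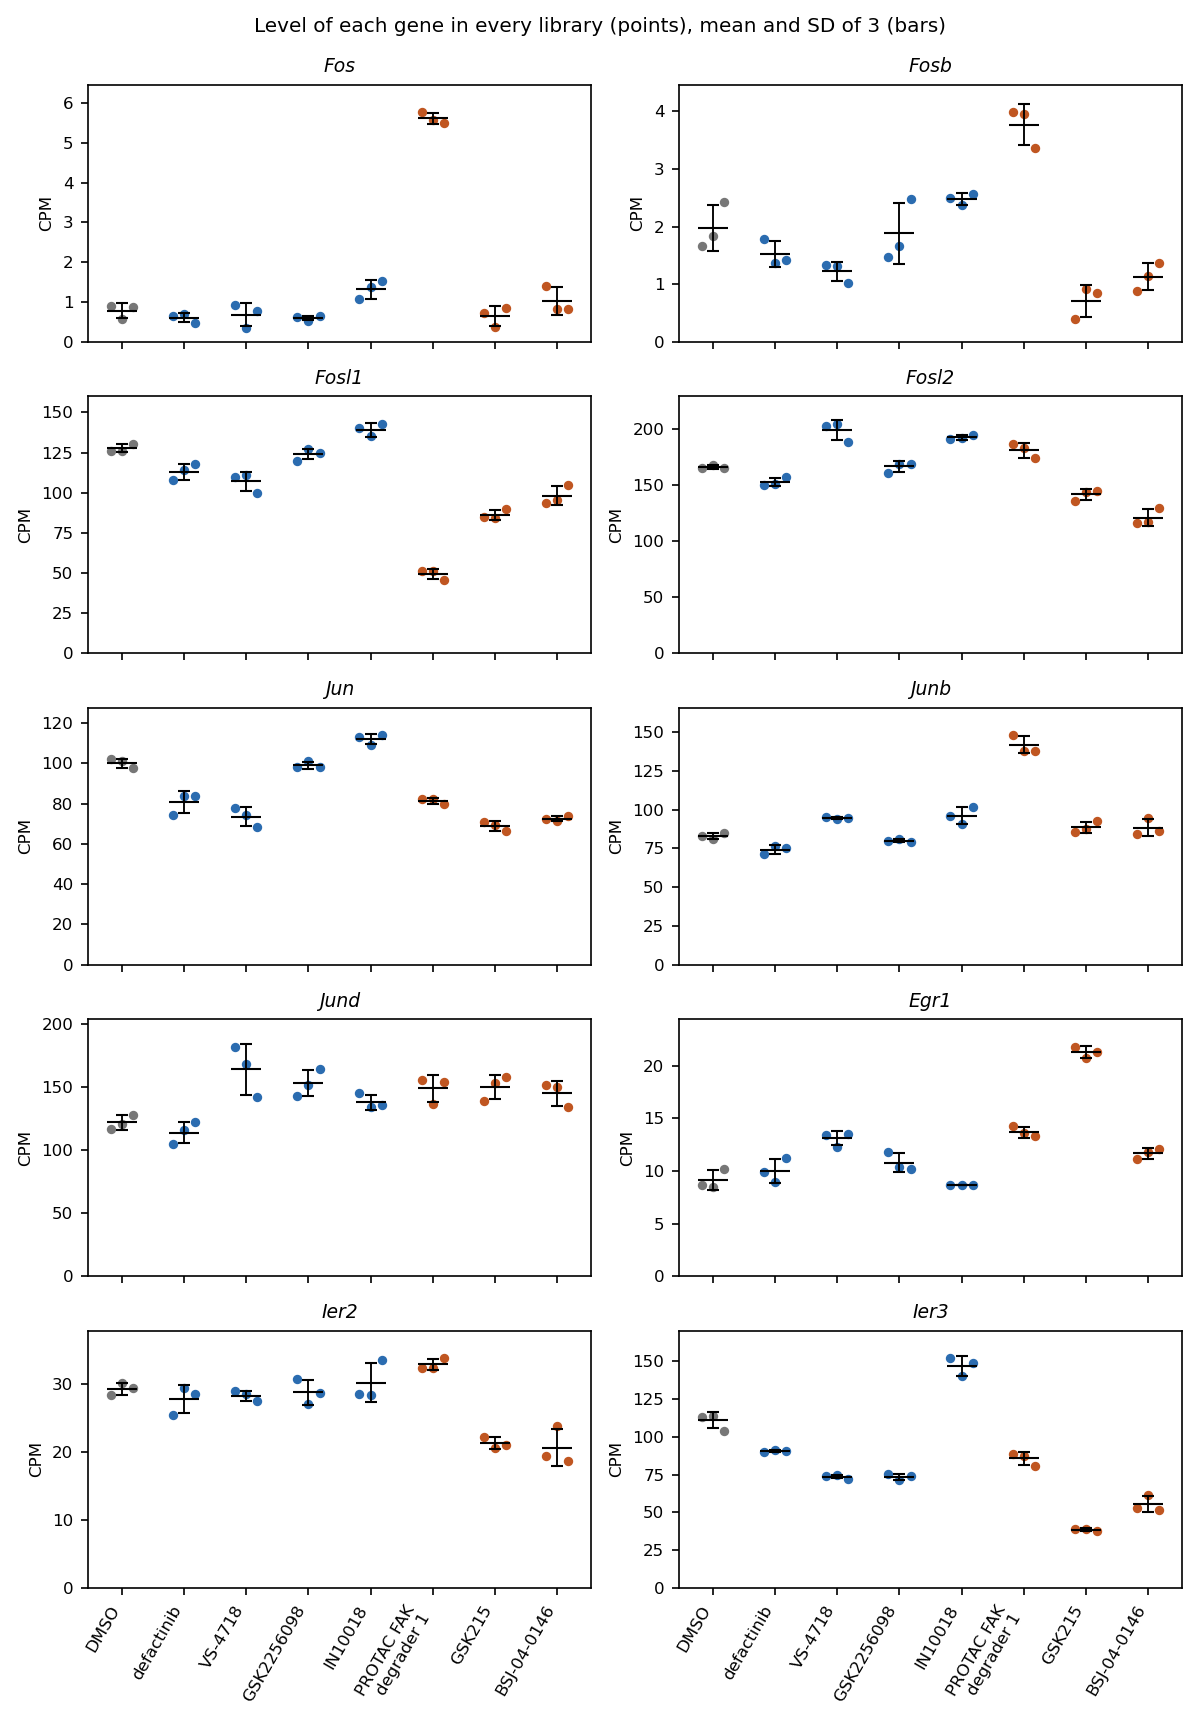
CPM (TMM-normalized, linear axis from 0) of each member in all 24 libraries: points are libraries, wide bars means and whiskers SD of 3, with DMSO in grey, kinase inhibitors in blue and PROTACs in orange. *Fos* stands at 5.62 CPM with PROTAC FAK degrader 1 against at most 1.32 CPM in the other means, and *Egr1* at 21.3 CPM with GSK215 against at most 13.7 CPM.

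*Egr1*, a zinc finger transcription factor that responds to the same kinases as *Fos*, rose with VS-4718 and the 3 PROTACs. The levels were 8.68, 8.49 and 10.2 CPM with DMSO and 21.8, 20.7 and 21.3 CPM with GSK215 (log2 fold change 1.22, SE 0.08, adjusted p = 3.01e-16, edgeR), a ratio of 2.33. No other library reached these 3. It also rose with PROTAC FAK degrader 1 to 14.3, 13.6 and 13.3 CPM (0.59, SE 0.08, adjusted p = 8.32e-08), with VS-4718 to 13.4, 12.3 and 13.5 CPM (0.52, SE 0.08, adjusted p = 1.77e-06) and with BSJ-04-0146 to 11.1, 11.8 and 12.1 CPM (0.35, SE 0.09, adjusted p = 0.000782). The first 2 of these groups overlapped each other, and none overlapped DMSO. The BSJ-04-0146 call was lost when GC content and length trends were removed (0.13, adjusted p = 0.236). GSK2256098 (10.8 CPM, 0.24, adjusted p = 0.0569) passed without DMSO replicate 3 (0.33, adjusted p = 0.0185), with library totals alone (0.25, adjusted p = 0.0426) and when thinned to the smallest total (0.33, adjusted p = 0.028), and defactinib (10.0 CPM, 0.14) and IN10018 (8.68 CPM, −0.07) did not pass. With GSK215 *Fos* was at 0.722, 0.374 and 0.839 CPM, within the range of its DMSO libraries but for the lowest. *Egr1* lies at chr18:34859823-34864984 on the plus strand, with 2 exons.

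*Ier2*, a small nuclear regulator, changed with the PROTACs and with no kinase inhibitor. It was at 28.3, 30.1 and 29.3 CPM with DMSO, at 22.2, 20.6 and 21.0 CPM with GSK215 (log2 fold change −0.46, SE 0.07, adjusted p = 7.71e-07, edgeR) and at 19.3, 23.8 and 18.7 CPM with BSJ-04-0146 (−0.50, SE 0.07, adjusted p = 2.09e-07). All 6 of these libraries lay below DMSO. PROTAC FAK degrader 1 gave 32.3, 32.3 and 33.7 CPM, above DMSO (0.16, adjusted p = 0.0291). That call was lost without DMSO replicates 1 (0.14) or 3 (0.17), without PROTAC FAK degrader 1 replicate 3 (0.14), and when GC content and length trends were removed (0.03). The kinase inhibitor means were 27.7 to 30.1 CPM, with log2 fold changes from −0.08 to 0.04. VS-4718 (−0.05) passed as lower once GC content and length trends were removed (−0.18, adjusted p = 0.0189). *Ier2* has a single exon at chr8:84661331-84662852 on the minus strand.

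*Ier3*, an inhibitor of apoptosis that also prolongs ERK signaling, was the member most widely affected: it passed with all 7 drugs, lower with 6 and higher with IN10018. It was at 113, 114 and 104 CPM with DMSO and 39.2, 38.9 and 37.5 CPM with GSK215 (log2 fold change −1.52, SE 0.05, adjusted p = 1.56e-25, edgeR), that is 0.348 times the DMSO level. BSJ-04-0146 lowered it to 53.2, 61.6 and 51.8 CPM (−0.99, SE 0.05, adjusted p = 2.65e-20). These were the lowest 6 of the 24 libraries. VS-4718 (73.8, 74.9 and 72.4 CPM) and GSK2256098 (75.6, 71.3 and 73.8 CPM) lowered it by like amounts (both −0.59, adjusted p = 8.95e-14 and 1.14e-12). PROTAC FAK degrader 1 (85.7 CPM, −0.37, adjusted p = 2.42e-09) and defactinib (90.6 CPM, −0.29, adjusted p = 4.59e-06) followed. With IN10018 the levels were 152, 140 and 149 CPM (0.41, SE 0.04, adjusted p = 5.57e-09), above every other library. In order of level, IN10018 came before DMSO, defactinib and PROTAC FAK degrader 1, then VS-4718 and GSK2256098, which did not differ beyond their spread, then BSJ-04-0146 and GSK215. The groups lowest in *Ier3* were those with the highest summed SC markers given above (GSK215 and BSJ-04-0146), and the part of cell state in the result was not tested. *Ier3* lies at chr17:35821684-35822923 on the plus strand.

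Compounds used at the same dose and time were then compared directly, which leaves the DMSO libraries out of the contrast. Among the 4 kinase inhibitors at 1 μM, 9 of 10 members differed in a single F test (52.2% of all genes did), *Ier3* most (adjusted p = 4.69e-22, edgeR) and *Ier2* not (adjusted p = 0.431). Between VS-4718 and defactinib, 4 members were higher and 2 lower with VS-4718, beside 18.0% and 16.0% of all genes. *Jund* (log2 difference 0.52, SE 0.06), *Fosl2* (0.38, SE 0.04), *Egr1* (0.38, SE 0.08) and *Junb* (0.35, SE 0.04) were higher with VS-4718, with adjusted p-values of 1.6e-08, 1.11e-10, 0.000266 and 1.66e-08. *Ier3* (−0.30, SE 0.05, adjusted p = 1.6e-06) and *Jun* (−0.14, SE 0.04, adjusted p = 0.0105) were lower. The *Jun* call was lost without defactinib replicate 2 (−0.11), defactinib replicate 3 (−0.11) or VS-4718 replicate 3 (−0.09). *Fos* (0.19, 95% interval −0.47 to 0.85) and *Fosb* (−0.32, −0.79 to 0.15) did not pass, with intervals too wide to call them alike. *Fosl1* (−0.08, −0.17 to 0.01) and *Ier2* (0.03, −0.11 to 0.16) did not pass either, and *Fosl1* was lower with VS-4718 once GC content and length trends were removed (−0.13, adjusted p = 0.00602).

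PROTAC FAK degrader 1 was compared with the mean of the 4 kinase inhibitors, all at 1 μM, and 5 members were higher and 3 lower with it, beside 36.7% and 35.6% of all genes. *Fos* was 2.89 higher on the log2 scale (SE 0.17, adjusted p = 1.09e-18, edgeR), *Fosb* 1.14 (SE 0.15, adjusted p = 1.05e-08), *Junb* 0.72 (SE 0.03, adjusted p = 1.51e-22), *Egr1* 0.38 (SE 0.07, adjusted p = 2.46e-06) and *Ier2* 0.19 (SE 0.05, adjusted p = 0.00143). *Fosl1* differed by −1.28 (95% interval −1.37 to −1.20, adjusted p = 4.74e-27), *Jun* by −0.15 (adjusted p = 0.000259) and *Ier3* by −0.10 (adjusted p = 0.0106). The *Ier3* mean of 85.7 CPM with PROTAC FAK degrader 1 lay between the kinase inhibitor means of 73.6 and 147 CPM, and its call was lost without PROTAC FAK degrader 1 replicate 3 (−0.07) and with library totals alone (−0.04). For *Fos*, *Junb* and *Fosl1*, by contrast, the 3 libraries lay outside all 12 kinase inhibitor libraries. *Fosl2* (0.04, −0.02 to 0.10) and *Jund* (0.08, −0.02 to 0.18) did not pass. *Jund* passed without VS-4718 replicate 1 (0.11), without PROTAC FAK degrader 1 replicate 2 (0.14) or with no filter (0.083), and both genes passed with library totals alone (0.10 and 0.14).

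Between the PROTACs at 0.1 μM, 2 members were higher and 2 lower with GSK215 than with BSJ-04-0146, beside 9.88% and 12.6% of all genes. *Egr1* was higher by 0.87 (SE 0.08, adjusted p = 1.5e-10, edgeR) and *Fosl2* by 0.23 (SE 0.04, adjusted p = 3.21e-05). *Ier3* (−0.53, SE 0.06, adjusted p = 2.15e-09) and *Fosl1* (−0.19, SE 0.05, adjusted p = 0.00304) were lower. In these 4 genes the libraries of the 2 drugs did not overlap. *Jun* (−0.08, 95% interval −0.17 to 0.02), *Junb* (0.01, −0.08 to 0.10), *Jund* (0.05, −0.08 to 0.18) and *Ier2* (0.04, −0.13 to 0.20) did not pass, and their intervals leave room for differences of up to 0.20. *Fos* (−0.65, −1.33 to 0.04) and *Fosb* (−0.61, −1.23 to 0.000116) did not pass at counts of 6 to 24 per library.

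**Figure D4:**
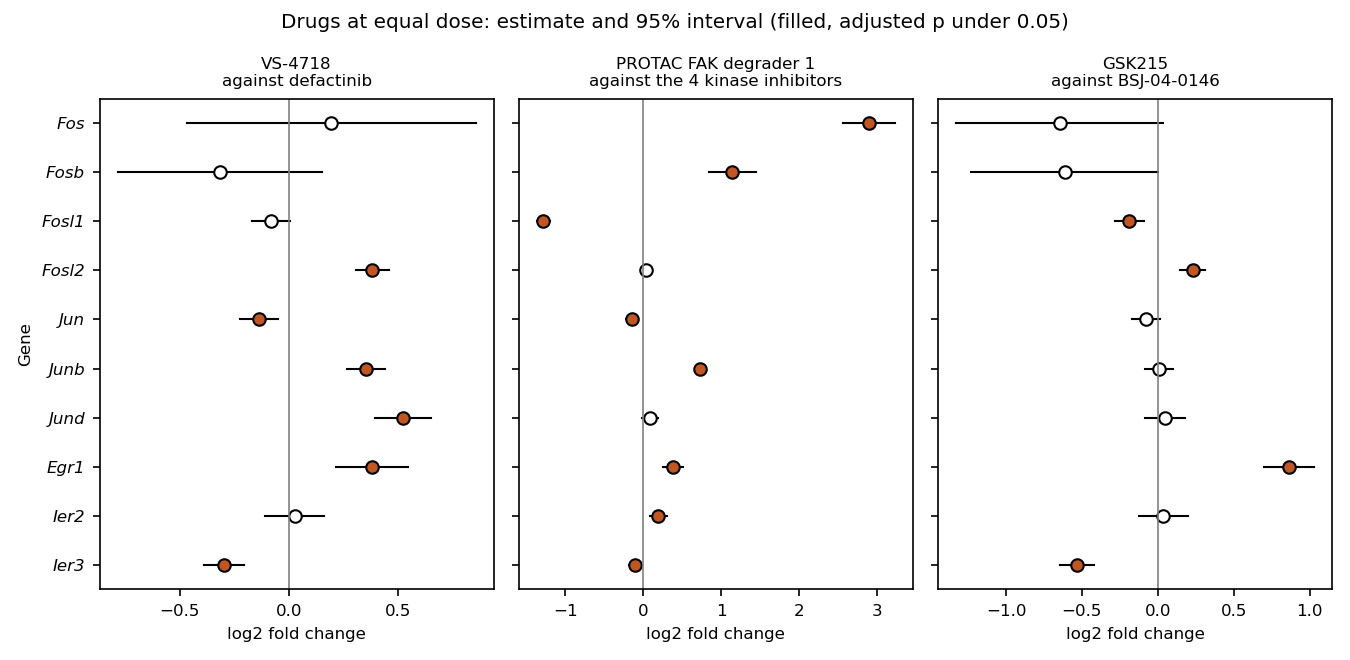
Log2 fold change (point) and 95% interval (line) of each member in the 3 comparisons at equal dose, each on its own horizontal scale, filled where the edgeR adjusted p was under 0.05. *Jund* differed most between VS-4718 and defactinib (0.52), *Fos* between PROTAC FAK degrader 1 and the kinase inhibitors (2.89) and *Egr1* between GSK215 and BSJ-04-0146 (0.87).

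The pathway around the members was followed in 4 lists. Of 42 other immediate-early genes tested, 23 were higher and 14 lower with PROTAC FAK degrader 1, beside 34.1% and 32.7% of all genes, with a median log2 fold change of 0.263 beside 0.00449 over all genes. With GSK215, 9 were higher and 20 lower beside 27.4% and 27.2% (median −0.157 beside 0.0211), and with BSJ-04-0146, 12 and 18 beside 27.7% and 26.9% (−0.0882 beside 0.0176). With VS-4718 there were 13 higher and 11 lower beside 20.4% and 18.9% (0.0966 beside 0.00478), and with defactinib 6 and 9 beside 11.4% and 11.0% (−0.0229 beside −0.00445). GSK2256098 gave 5 and 9 beside 6.36% and 6.09% (−0.0583 beside 0.00263), and IN10018 6 and 2 beside 6.44% and 6.86% (0.0407 beside 0.00351). The shares and medians over all genes hold for the other lists too. *Atf3*, a stress-induced basic leucine zipper gene that can pair with Jun, rose with PROTAC FAK degrader 1 as *Fos* did. It was at 7.32 ± 0.564 CPM with DMSO and 48.2 ± 3.47 CPM with PROTAC FAK degrader 1 (2.71, SE 0.08, adjusted p = 1.63e-27, edgeR). It fell with GSK215 (1.89 CPM, −1.94), VS-4718 (−1.07), BSJ-04-0146 (−0.92), GSK2256098 (−0.82) and defactinib (−0.79), and rose with IN10018 (0.39). *Maff*, a small Maf protein gene, went from 42.0 to 14.7 CPM with GSK215 (−1.51) and to 19.0 CPM with BSJ-04-0146 (−1.14). It fell also with VS-4718 (−0.70), PROTAC FAK degrader 1 (−0.64) and defactinib (−0.21) and rose with IN10018 (0.20). *Ctgf*, a matricellular gene, went from 11.3 to 2.40 CPM with PROTAC FAK degrader 1 (−2.23, adjusted p = 1.54e-18), and fell also with GSK215 (−0.49) and IN10018 (−0.35).

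Of 16 other basic leucine zipper partners tested, 9 were higher and 1 lower with PROTAC FAK degrader 1 (median 0.125), beside 34.1% and 32.7% of all genes. The numbers were 5 and 5 with GSK215 (−0.0224), beside 27.4% and 27.2%, and 6 and 6 with BSJ-04-0146 (−0.012), beside 27.7% and 26.9%. With VS-4718 they were 4 and 4 (0.026) beside 20.4% and 18.9%, and with defactinib 3 and 0 (0.0201) beside 11.4% and 11.0%. GSK2256098 gave 1 and 0 (0.0368) beside 6.36% and 6.09%, and IN10018 2 and 0 (0.00645) beside 6.44% and 6.86%. The count of 0 with defactinib rests on the cutoff, since *Mafk* just missed it (−0.13, adjusted p = 0.0549, edgeR). *Nfe2l1*, a regulator of proteasome genes, went from 259 to 494 CPM with PROTAC FAK degrader 1 (0.93, SE 0.03, adjusted p = 7.85e-27, edgeR). It rose also with defactinib (0.12) and fell with BSJ-04-0146 (−0.19) and VS-4718 (−0.076). *Maf*, the gene lowered by PROTAC FAK degrader 1 (−0.17), went from 18.6 to 40.6 CPM with BSJ-04-0146 (1.13) and 34.9 CPM with GSK215 (0.91), and rose also with VS-4718 (0.48), GSK2256098 (0.25) and defactinib (0.18). *Mafk* fell with GSK215 (−0.69) and BSJ-04-0146 (−0.51).

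Of 26 genes for the kinases and the ternary complex that drive immediate-early transcription, 4 were higher and 14 lower with GSK215 (median −0.142), beside 27.4% and 27.2% of all genes. The numbers were 6 and 13 with BSJ-04-0146 (−0.114), beside 27.7% and 26.9%, and 9 and 12 with PROTAC FAK degrader 1 (−0.0396), beside 34.1% and 32.7%. With VS-4718 they were 5 and 8 (−0.0316) beside 20.4% and 18.9%, with defactinib 1 and 6 (−0.0465) beside 11.4% and 11.0%, with GSK2256098 1 and 5 (−0.0311) beside 6.36% and 6.09%, and with IN10018 5 and 2 (0.0159) beside 6.44% and 6.86%. *Rps6ka2*, which encodes the ERK-activated kinase RSK3, went from 50.4 to 132 CPM with PROTAC FAK degrader 1 (1.39, SE 0.05, adjusted p = 1.26e-25, edgeR) and fell with GSK215 (−0.78), BSJ-04-0146 (−0.63), VS-4718 (−0.56) and GSK2256098 (−0.20). With IN10018 it rose (0.17, adjusted p = 0.0238). *Mapk3*, which encodes ERK1, rose with PROTAC FAK degrader 1 (0.85), BSJ-04-0146 (0.51), GSK215 (0.27), VS-4718 (0.22) and IN10018 (0.17). *Elk3*, a ternary complex factor that binds beside serum response factor, went from 110 to 59.5 CPM with PROTAC FAK degrader 1 (−0.89, adjusted p = 5.93e-22), and fell also with GSK215 (−0.33), BSJ-04-0146 (−0.18), VS-4718 (−0.14) and defactinib (−0.11).

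Of 35 genes that AP-1 is known to regulate, 9 were higher and 19 lower with PROTAC FAK degrader 1 (median −0.399), beside 34.1% and 32.7% of all genes. The numbers were 17 and 15 with GSK215 (0.0965), beside 27.4% and 27.2%, and 16 and 14 with BSJ-04-0146 (0.0695), beside 27.7% and 26.9%. With VS-4718 they were 12 and 14 (−0.0106) beside 20.4% and 18.9%, with defactinib 9 and 7 (0.0411) beside 11.4% and 11.0%, with GSK2256098 10 and 8 (0.0297) beside 6.36% and 6.09%, and with IN10018 6 and 8 (0.0709) beside 6.44% and 6.86%. The stress-responsive genes *Mt2*, a metallothionein, and *Hmox1*, heme oxygenase 1, rose with PROTAC FAK degrader 1, from 17.3 to 108 CPM (2.64) and from 28.3 to 101 CPM (1.84). *Mt2* rose also with BSJ-04-0146 (1.61), GSK215 (0.87) and VS-4718 (0.25). *Hmox1* rose also with BSJ-04-0146 (0.55) and IN10018 (0.23) and fell with GSK2256098 (−0.39) and VS-4718 (−0.25).

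**Figure D5:**
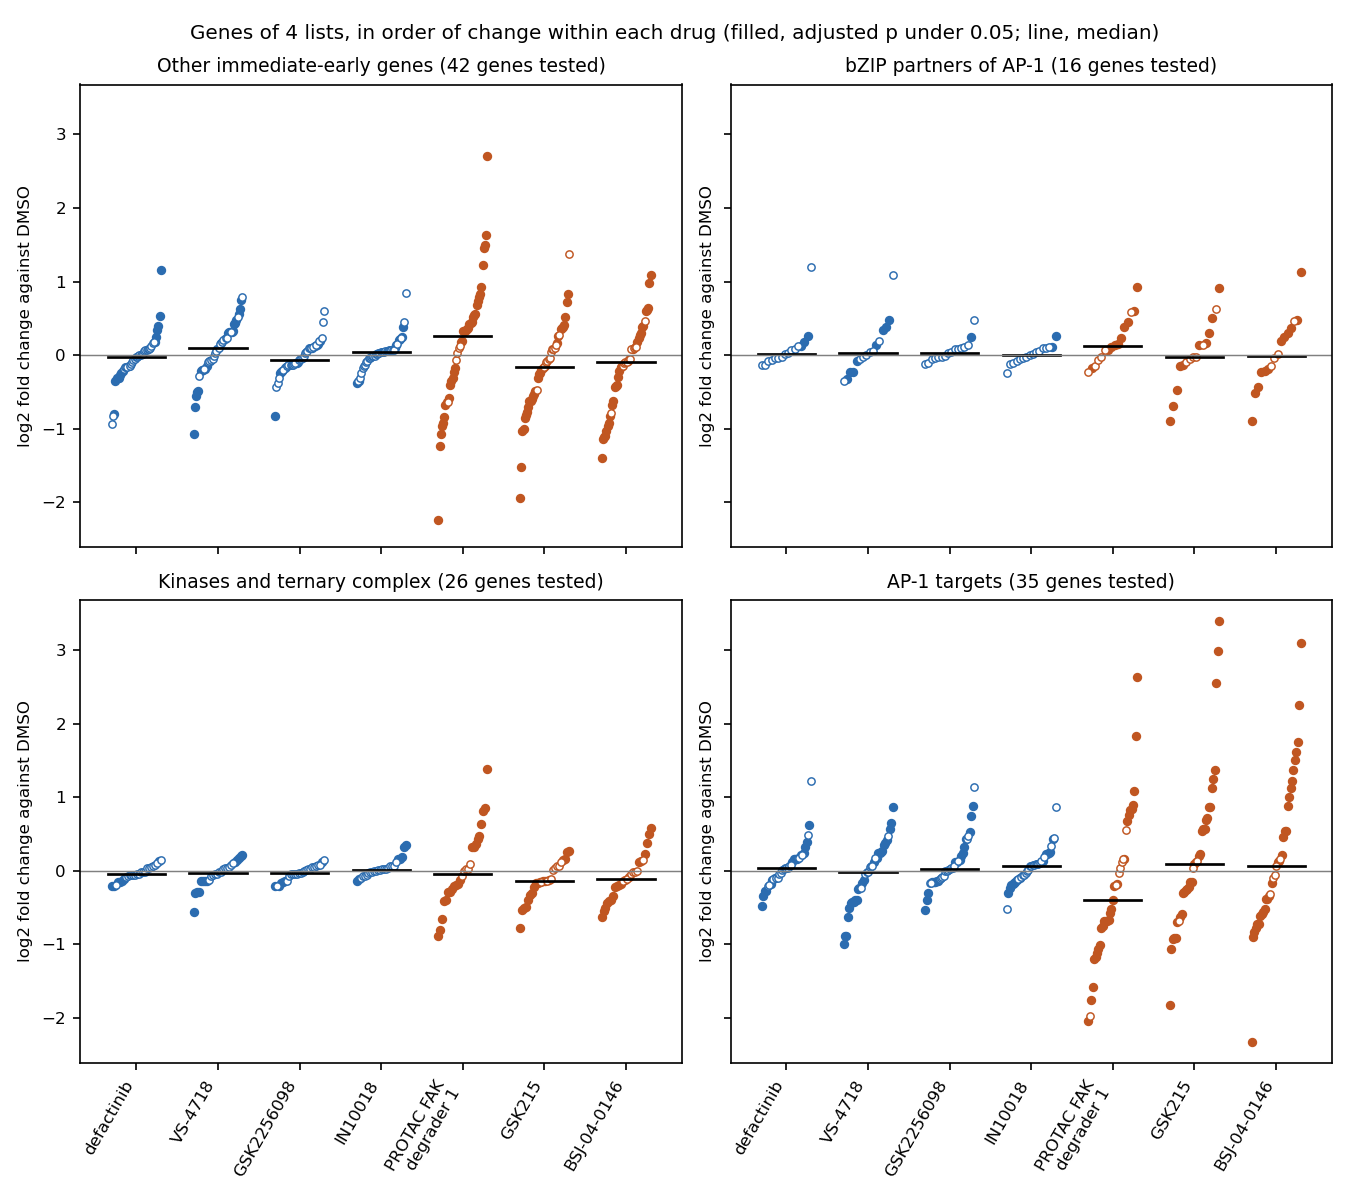
Log2 fold change against DMSO of each gene tested in the 4 lists, placed within each drug in order of change, filled where the edgeR adjusted p was under 0.05, with the list's median as a line. With PROTAC FAK degrader 1 the median of the other immediate-early genes was 0.263 and that of the AP-1 targets −0.399, while with GSK215 they were −0.157 and 0.0965.

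Genes with the most similar pattern to a member were ranked by the Pearson correlation of the 8 group means of log2(CPM + 4), over 9784 genes. The points share libraries and normalization, and the values describe these 8 groups only. *Elk3* (r = 0.995) and *Hmgb1* (0.993) were nearest to *Fosl1*, *Glo1* (0.983) and *Map2k1* (0.976), which encodes MEK1, to *Ier3*, and *Ppie* (0.984) and *Rnf220* (0.964) to *Jun*. For *Fos* they were *Lrrfip2* (0.997) and *Ift57* (0.996), for *Fosb* *Spop* (0.995) and *Eif2ak4* (0.993), for *Junb* *Zscan20* (0.995) and *Mrpl10* (0.993), and for *Ier2* *Ddx10* and *Htatsf1* (both 0.991). *Fosl2* (*Bckdhb*, 0.972, and *Bud13*, 0.959), *Jund* (*Fmc1*, 0.951, and *Lnx2*, 0.925) and *Egr1* (*Chd6*, 0.944, and *Pde7a*, 0.940) had no gene above 0.98. Among the members, *Fos* and *Junb* were the most alike (r = 0.935), and *Egr1* and *Ier3* the most opposed (−0.852).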

How the data were processed

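The authors deposited raw, unnormalized counts of reads for each Ensembl gene in each library. RNA was poly(A) selected. The submitters' processing notes name Trimmomatic 0.36, STAR 2.5.2b, featureCounts (Subread 1.5.2) and GRCm38. The strand setting and annotation release are not given in the sources used here, and coordinates and exon lengths are from GENCODE M21, which held 49056 of the 49315 identifiers. Columns were matched to samples by library number.

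The main model was edgeR 4.0.16 in R 4.3.3: TMM, filterByExpr, then glmQLFit and glmQLFTest on 24 libraries in 8 groups (16 residual degrees of freedom). Two-sided p-values were adjusted (Benjamini-Hochberg, 16070 genes) and called under 0.05. SE is |log2 fold change| over the root of F. Replicate pairs differed by more than counting noise (chi-square per degree of freedom 1.8 to 9.45). The model was tested on simulated data.

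Alternatives were DESeq2 1.42.0, limma-trend (limma 3.58.1) on log2(CPM + 4), library totals alone, no filter, a replicate block, only the groups compared, thinning to the smallest total, removal of GC content and length trends, a minimum change of 2-fold, and leaving out each replicate. The members and lists were chosen with earlier results of these data known. Named genes outside the members were, per list, the 3 with the largest change against DMSO among genes past the threshold and with a mean of at least 5 CPM, and per member the 2 genes most like it. Overlapping genes and the most and least alike pair of members were named after their values were seen. *Mrtfa* and *Areg* were not analysed here, and some results are not reported here.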

Additional observations from a re-analysis of the deposited data

How the results depend on the processing

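Of the 100 log2 differences of members, 99 kept their side of the threshold, and their direction where called, when only the groups compared were fitted, 97 without a filter, 97 with limma-trend on log2(CPM + 4), 97 when thinned to the smallest total, 94 with library totals alone and 88 after removing trends on GC content and length. DESeq2 gave the same call for 95 of 96. Among the values not called before and after, the sign differed for 4 when thinned, 3 without the GC content and length trends, 1 with DESeq2 and 19 of 690 with replicates left out. The direction of a value called before or after turned only for *Junb* when GC content and length trends were removed, for GSK215 (−0.081, called before) and BSJ-04-0146 (−0.16, called after), and 4 members in place of 2 then passed with GSK2256098. A minimum change of 2-fold left 0 members with defactinib, 0 with VS-4718, 0 with GSK2256098, 0 with IN10018, 2 with PROTAC FAK degrader 1 (beside 8.04% of all genes higher and 6.28% lower), 3 with GSK215 (5.69% and 1.43%) and 0 with BSJ-04-0146 (5.76% and 1.57%), 0 between VS-4718 and defactinib, 3 between PROTAC FAK degrader 1 and the kinase inhibitors (7.62% and 6.69%), and 0 between GSK215 and BSJ-04-0146. Against DMSO it left 28 (IN10018) to 2301 (PROTAC FAK degrader 1) of all genes in place of 2137 and 10740, and in the direct comparisons 76 to 2299 in place of 3615 and 11610. Leaving out replicates gave 3 to 5 members with defactinib, 3 without defactinib replicate 1, and 663 of 690 values kept their call. Library totals alone shifted the median of all genes by 0.12 with GSK215 and 0.11 with BSJ-04-0146, and the share of higher genes among calls went from 50.2 to 68.3%, from 50.7 to 66.9% and, with VS-4718, from 51.9 to 62.7%. Without GC content and length trends that share went to 37.9% with GSK215 and 39.2% with BSJ-04-0146, and with defactinib from 50.9 to 38.8%. The cause of these shifts was not tested.

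Replicate numbers did not pair the libraries: same-numbered libraries correlated at −0.17 to 0.0999 after removal of group means. With a replicate block, 99 of 100 values kept their call and 5 members passed with defactinib, as without it. *Junb* with GSK215 did not (0.10, adjusted p = 0.0547, edgeR). *Fos* and *Fosb* are limited by depth, with 6 to 126 counts per library.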
